A study of Mus musculus with 2 samples.

Results

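The genes described here encode the Toll-like receptors, the interleukin-1 receptor family with its ligands, the Nod receptors, and the adaptors and kinases that carry their signals. They were taken from a list of 40 mouse genes, and a gene counted as measurable where the platform annotation paired a probe set with its symbol alone. This held for 34 of the 40 genes, with 72 probe sets, out of 18193 genes and 34945 singly named probe sets in the whole data set. The genes Ticam2, Irak4, Il1rl1, Chuk, Nod2 and Ripk2 had no such probe set and were not analysed here.

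Total RNA came from primary mouse osteoblasts that had been cultured in alpha-MEM (fetal calf serum at 10%) and brought to day 10 of differentiation by adding beta-glycerophosphate at 10 mM together with ascorbic acid at 50 µg/ml. All cultures were kept without serum overnight. One group then received medium conditioned by MDA-PCa2b cells and the other medium conditioned by PC-3 cells, in both cases for 6 hours. MDA-PCa2b and PC-3 are human prostate cancer lines derived from bone metastases. The design asked which transcripts of osteoblasts respond to factors from these lines. Each medium was represented by 1 array, so no error and no p-value can be attached to a difference, and every ratio describes this single pair of arrays. No source used here gives the mouse strain or the number of animals behind a culture, and osteoblasts without tumour-cell medium were not analysed here, so "higher" and "lower" always give the value in PC-3 medium against that in the other.

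Toll-like receptors recognise microbial products and molecules released by damaged cells, and interleukin-1 receptors recognise cytokines of the interleukin-1 family. Both kinds of receptor carry the same cytoplasmic TIR domain, through which most of them recruit the adaptor MyD88, the IRAK kinases and the ubiquitin ligase TRAF6. TRAF6 engages the kinase TAK1 and the IKK complex, which release NF-kB, while Toll-like receptor 3 and part of Toll-like receptor 4 signalling use the adaptor TRIF. In osteoblasts this pathway is known to raise chemokines, interleukin-6 and the osteoclast-inducing ligand RANKL.

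The values are signals of probe sets on a linear scale, and the trimmed means of both arrays were equal, which marks a global scaling before deposit. A signal below the median of its array (56.7 in MDA-PCa2b medium against 57.7 in PC-3 medium) was treated as being at a floor, and the brightest probe set stood for its gene. Where the signal exceeded the floor in PC-3 medium but not in MDA-PCa2b medium, the ratio is a lower bound. Signals of different genes were not set against each other, because probe sets differ in brightness for reasons unrelated to transcript level. The only available measure of scatter was that between probe sets of the same gene, whose log2 ratios had an SD of 0.24 over 4924 genes, from 0.28 in the lowest to 0.21 in the highest tertile of signal. This is measurement scatter and not the spread between cultures.

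Osteoblast markers and also macrophage markers gave signals. All 7 measurable osteoblast markers exceeded the floor in both media, and Ifitm5 (4442 and 741) and Dmp1 (1765 and 426) were more than 2-fold lower with PC-3 medium. The log2 ratios of all 7 were below 0, with a median of -0.41, beside 55.9% below 0 among all 10649 genes measured on both arrays. Those of Col1a1 (-0.004), Phex (-0.10) and Ibsp (-0.12) lay within the probe set SD of 0.24, so their sign says little. Sp7 (1469 and 919, -0.68) was a further marker at least 1.5-fold lower. All 18 macrophage and monocyte markers likewise exceeded the floor on both arrays. Their summed signal was 21912 in MDA-PCa2b medium against 22905 in PC-3 medium, of which Lyz2 alone gave 9194 and 9416. Such a sum mostly follows the brightest probe sets. Their log2 ratios ran from -0.23 for Ptprc to 0.82 for Fcgr1, with 14 of 18 above 0, beside 44.1% of all genes measured on both arrays. Most of these 14 ratios were smaller than the probe set SD of 0.24. The median was 0.09, and none of the 18 was at least 2-fold different. All 8 endothelial markers were below the floor on both arrays, as were 8 of 9 mast cell and lymphocyte markers, the exception being Il7r (38.6 and 61.1). Macrophages also express many of the receptors described here. In such bulk RNA more cells of a type and more RNA per cell cannot be told apart, and the part of osteoblasts and macrophages in the ratios was not tested.

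Of the 34 genes, 28 were above the floor on at least 1 array and 25 on both. With PC-3 medium 5 of the 28 genes were at least 2-fold higher, which is 17.9%, beside 2.12% of all 11336 genes above the floor. None was at least 2-fold lower, beside 1.85% of all genes. The 5 genes were Tlr2, Il1r1, Il33, Irak3 and Map3k8, and they belong to different layers of the pathway. At 1.5-fold the count was 10 of 28 higher (35.7%, beside 5.59% of all genes) and 0 lower (beside 6.56%). The median log2 ratio of the 28 genes was 0.28, beside -0.04 over all genes, and 19 of the 25 genes measured on both arrays had a ratio above 0 (76%, beside 44.1% of all 10649 such genes). Counts of this kind describe the 2 arrays and carry no test, and the list was chosen with earlier results of these data known.

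**Figure D1:**
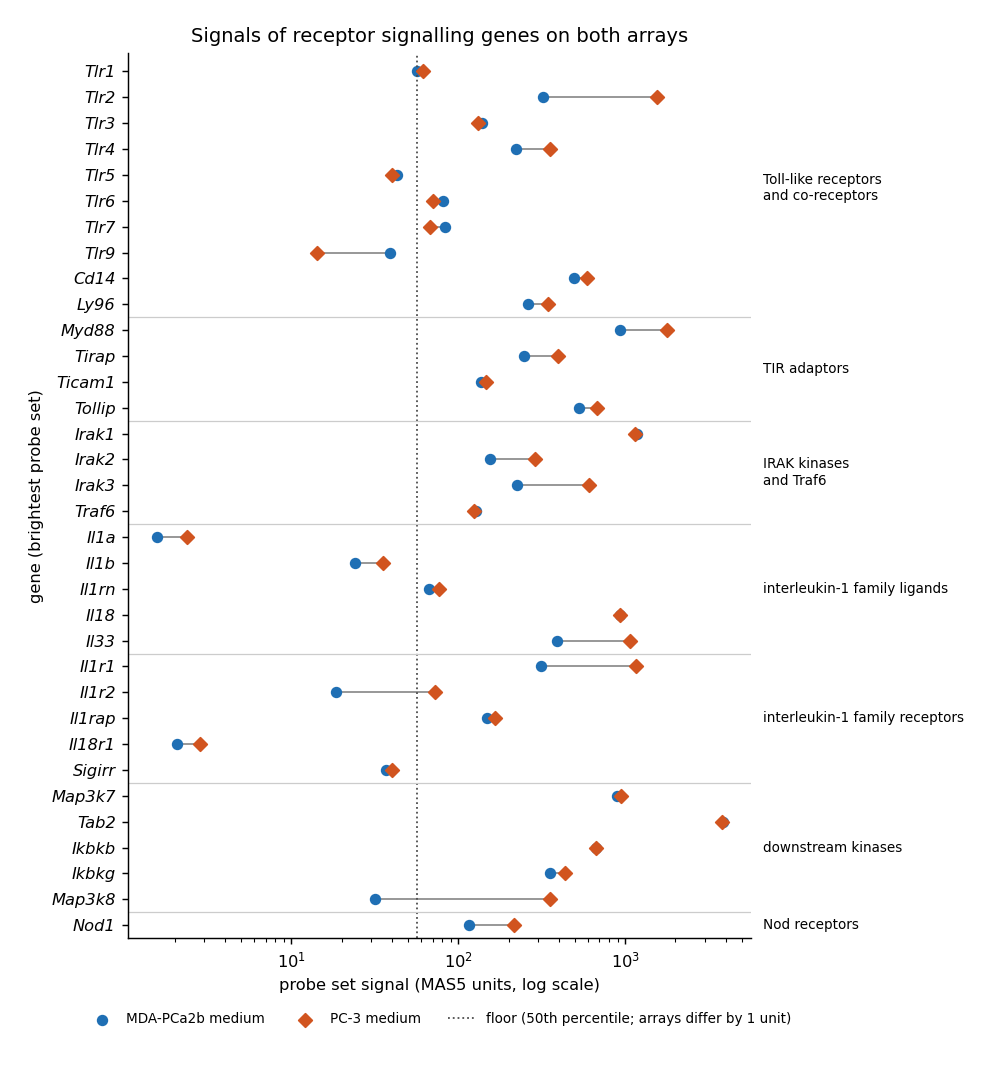
Signals of the brightest probe set of each of the 34 genes (x axis, MAS5 signal, log scale) by layer of the pathway, with circles for MDA-PCa2b medium, diamonds for PC-3 medium, 1 array each and no error bars; the dotted line is the floor. The widest gaps above the floor are those of Tlr2 (323 and 1549) and Il1r1 (314 and 1154), while Tab2 (3830 and 3777), Ikbkb (665 and 665) and Il18 (927 and 929) have overlapping symbols.

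Among the ligands, Il33 alone was at least 2-fold different. It encodes interleukin-33, a nuclear alarmin that is released from injured cells and binds the receptor ST2. Its signal was 390 in MDA-PCa2b medium against 1061 in PC-3 medium, 2.72-fold higher (log2 ratio 1.44), which ranked 102 from the highest among the 10649 genes measured in both media. The gene of its receptor, Il1rl1, was not analysed here, so ligand and receptor could not be set side by side.

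The classical ligands gave no usable signal in either medium. Il1a had signals of 1.56 and 2.36 and Il1b of 24.0 and 35.1, all below the floor, so no ratio is given for these genes of interleukin-1 alpha and beta. Il1rn, which encodes the secreted interleukin-1 receptor antagonist, lay just above the floor (66.8 and 76.7, log2 ratio 0.20). Its other 2 probe sets were above the floor in PC-3 medium but not in the other, giving lower bounds of 0.37 on the log2 scale. Il18, whose product drives interferon-gamma production, had practically the same signal in both media (927 and 929).

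The interleukin-1 receptor layer differed between its chains. Il1r1, the gene of the signalling receptor for interleukin-1 alpha and beta, gave 314 in MDA-PCa2b medium against 1154 in PC-3 medium, 3.68-fold higher (log2 ratio 1.88, rank 45 from the highest). A second probe set of Il1r1 was near 0 on both arrays (4.25 and 0.817) and gave no ratio. Il1rap, which encodes the co-receptor that Il1r1 needs for signalling, gave 149 and 165 by its brightest probe set (log2 ratio 0.15). Its second measured probe set, with signals of 68.1 and 107.5, gave a log2 ratio of 0.66, so the Il1rap probe sets differed by 0.51, and its other 3 were below the floor.

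Il1r2 encodes a decoy receptor that binds interleukin-1 without signalling. Its signal was 18.4 with MDA-PCa2b medium, below the floor, and 72.6 with PC-3 medium, so that it was at least 1.28-fold higher. The size of this difference depended on the floor, since the log2 bound of 0.36 became a ratio of 1.98 for a floor at the 25th percentile. Sigirr, the gene of an inhibitory receptor of the family (36.9 and 39.8), and Il18r1, a chain of the interleukin-18 receptor (2.06 and 2.83), were below the floor in both media.

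Among the 8 Toll-like receptor genes only Tlr2 was at least 2-fold different. It encodes the receptor for bacterial lipoproteins, and its probe set gave 323 in MDA-PCa2b medium against 1549 in PC-3 medium, 4.79-fold higher (log2 ratio 2.26). This was rank 23 from the highest among the 10649 genes, and Tlr2 had no second probe set against which to check it. Its log2 ratio stayed between 2.21 and 2.30 under every alternative of floor, scaling and probe set choice that was run.

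Toll-like receptor 2 works as a pair with receptor 1 or receptor 6, and neither partner gene was higher to a like degree. Tlr1 lay at the floor (56.5 and 61.3, at least 1.08-fold higher) and Tlr6 just above it (80.6 and 70.4, 1.14-fold lower). Signals so near the floor say little about the size of a difference.

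Tlr4, the gene of the receptor for bacterial endotoxin, had 3 probe sets above the floor on both arrays, and all of them were higher with PC-3 medium. The brightest gave 221 and 355 (log2 ratio 0.68, 1.61-fold), the next 208 and 335 (0.69) and the dimmest 85.0 and 152.5 (0.84). These 3 ratios lay within 0.16 of each other, and a further probe set was near 0 (4.11 and 1.54). When the floor was put at the 75th percentile, Tlr4 had a lower bound of 0.25, because the signal with MDA-PCa2b medium was then replaced by the floor.

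The endotoxin co-receptors differed less than Tlr4. Ly96, which encodes MD-2, the endotoxin-binding partner of Toll-like receptor 4, gave 260 and 345 (log2 ratio 0.41). Cd14, whose product hands endotoxin and lipoproteins to the receptors, gave 491 and 591 (log2 ratio 0.27, 1.20-fold). Both ratios lay within the range of the 18 macrophage markers (-0.23 to 0.82, median 0.09), as did that of Tlr4, and the part of macrophages in these differences was not tested. The upper end of the marker range was that of Fcgr1 alone, the next marker being Cd68 (0.59), which Tlr4 (0.68) and Tirap (0.69) exceeded. Ratios of Tlr2, Il1r1, Il33 and Irak3 and the bound of Map3k8 (2.65) lay above the range. Those of Myd88 (0.94), Nod1 (0.91) and Irak2 (0.89) exceeded it by less than the probe set SD of 0.24. Whether a ratio lay inside or above this range says nothing of its cause, which was not tested.

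The genes of the nucleic acid receptors had ratios near or below 0, or none. Tlr3, which senses double-stranded RNA, gave 139 and 132 by its brightest probe set (log2 ratio -0.08) and 72.6 and 78.4 by the other (0.11). Tlr7, a sensor of single-stranded RNA, gave 82.7 and 67.8 (log2 ratio -0.29), with its other 2 probe sets below the floor. Tlr9, which senses unmethylated CpG DNA, was below the floor in both media (38.8 and 14.2), and so was Tlr5, the flagellin receptor gene (43.0 and 39.8).

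For the 5 genes at least 2-fold higher, a search of the DNA around their starts was planned for the NF-kB consensus. This is a 10-base motif bound by the pathway's own transcription factor. Windows of 300 bases, 250 before and 50 after an annotated start, came from RefSeq (GRCm38.p6). Of the 5 genes, windows of Tlr2, Il1r1, Il33 and Irak3 were searched on both strands, 7 windows in all. The search left out a chromosome that the share over all windows kept, and Map3k8 was not searched. The 2 windows with a match are shown 5′ to 3′ on the gene's strand, with each match in capitals.
Tlr2, chr3:83841559-83841858, minus strand: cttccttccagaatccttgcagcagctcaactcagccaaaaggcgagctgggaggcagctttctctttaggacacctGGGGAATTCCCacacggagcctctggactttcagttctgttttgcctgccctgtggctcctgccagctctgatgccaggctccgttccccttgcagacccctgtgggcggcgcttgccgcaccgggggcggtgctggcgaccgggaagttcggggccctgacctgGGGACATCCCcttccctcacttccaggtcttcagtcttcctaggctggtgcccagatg
Il1r1, second start, chr1:40266336-40266635, plus strand: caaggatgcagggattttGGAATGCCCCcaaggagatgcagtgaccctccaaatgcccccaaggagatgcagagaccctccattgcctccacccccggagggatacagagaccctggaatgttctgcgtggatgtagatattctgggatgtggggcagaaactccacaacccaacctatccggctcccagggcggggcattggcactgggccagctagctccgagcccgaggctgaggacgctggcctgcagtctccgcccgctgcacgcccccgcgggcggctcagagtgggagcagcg

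In the Tlr2 window the first stretch in capitals holds 3 overlapping matches, on both strands, since the letters GGGAATTCCC within it read the same on either strand. Its first match begins 173 bases before the start. The second stretch begins 8 bases before the start and ends 2 bases after it. The match of the Il1r1 window lies on the opposite strand, 232 to 223 bases before the second annotated start, and the window of the first start had none. Neither Il33 window nor either Irak3 window held a match. Of all 32851 windows of this length 4.51% held the NF-kB consensus. The AP-1 motif TGANTCA was found in none of the 7 windows and in 7.81% of all windows. Such matches describe letters and do not show that a factor binds there.

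Among the adaptors, all 4 measured genes had ratios above 0, beside 44.1% of all genes measured on both arrays. That of Ticam1 (0.10) was smaller than the probe set SD of 0.24, so its sign says little. Myd88, which encodes the adaptor shared by most Toll-like receptors and by the interleukin-1 receptor, gave 925 in MDA-PCa2b medium against 1780 in PC-3 medium, 1.92-fold higher (log2 ratio 0.94, rank 232). It lay just under the 2-fold mark. Tirap, the bridging adaptor that brings MyD88 to receptors 2 and 4, gave 247 and 398 (log2 ratio 0.69) by its brightest probe set and 86.1 and 109.6 (0.35) by the other.

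The adaptor of the alternative route differed little. Ticam1 encodes TRIF, used by Toll-like receptors 3 and 4, and gave 137 and 147 (log2 ratio 0.10). Tollip, whose product restrains IRAK1, gave 527 and 682 (log2 ratio 0.37), and its second probe set agreed closely (0.33). The median log2 ratio of the 4 adaptor genes was 0.53.

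The IRAK kinase genes differed in the size of their ratios. Irak3 encodes IRAK-M, a family member that restrains signalling from the receptor complex. Its signal was 225 in MDA-PCa2b medium against 609 in PC-3 medium, 2.70-fold higher (log2 ratio 1.43, rank 105). A second probe set gave 106 and 241 (1.19), so both Irak3 probe sets were above 2-fold. When the floor was put at the 75th percentile, the brightest probe set gave a lower bound of 1.03. The signal with MDA-PCa2b medium was then replaced by the floor.

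Irak2, which encodes a kinase that sustains signalling downstream of MyD88, gave 155 and 287 by its only probe set, 1.85-fold higher (log2 ratio 0.89). Irak1, the kinase that links the receptor complex to TRAF6, gave 1184 and 1138, and its 4 probe sets had log2 ratios between -0.16 and 0.09. Traf6, the gene of the ubiquitin ligase that the IRAK kinases act through, gave 128 and 123 (log2 ratio -0.05) and, by a second probe set, 81.4 and 85.2 (0.07). Its other 3 probe sets were below the floor. For Irak1 and Traf6 the ratios were thus smaller than the scatter between probe sets.

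**Figure D2:**
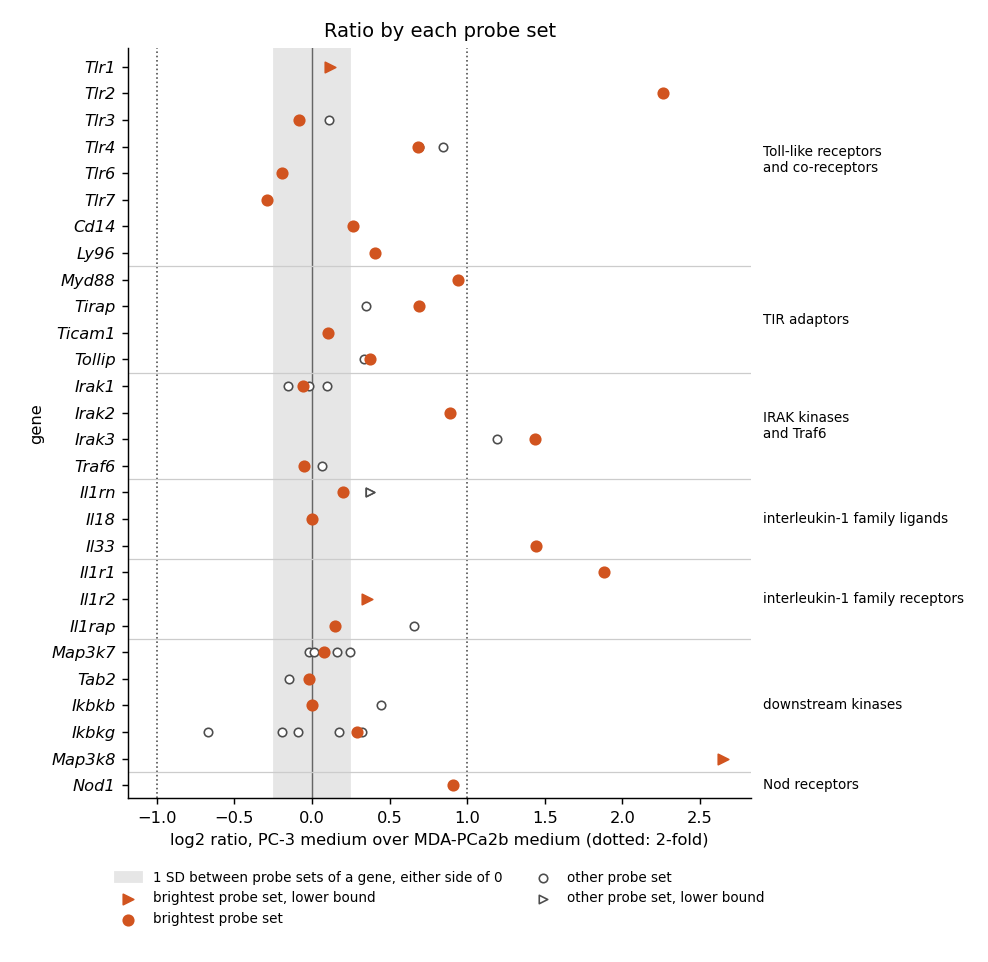
Log2 ratio, PC-3 over MDA-PCa2b medium, for every probe set above the floor of the 28 genes (filled: brightest probe set, open: others, triangles: lower bounds), with the SD between probe sets of a gene shaded (0.24 either side of 0) and 2-fold dotted. Both Irak3 symbols lie beyond 2-fold and the 3 of Tlr4 lie together, whereas the 6 of Ikbkg fall on both sides of 0.

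Of the downstream kinases, only Map3k8 was at least 2-fold different. It encodes TPL2, a kinase that joins these receptors to the ERK pathway. Its single probe set gave 31.7 with MDA-PCa2b medium, below the floor, and 355 with PC-3 medium, at least 6.26-fold higher (log2 bound 2.65). For a floor at the 25th percentile both signals were above it and the log2 ratio was 3.48. At the 75th the lower bound was 0.25, which does not reach 2-fold and leaves the size of the difference unknown. No promoter sequence of Map3k8 was examined.

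In the core of the relay to NF-kB, Map3k7 and Tab2 had nearly equal signals in both media, whereas the probe sets of Ikbkb differed. Map3k7, the gene of TAK1, gave 892 and 942 (log2 ratio 0.08), with its 5 measured probe sets between -0.02 and 0.24. Tab2, which encodes the protein that holds TAK1 on ubiquitin chains, gave 3830 and 3777 (-0.02) and 1430 and 1291 by its second probe set (-0.15). Ikbkb, the gene of the catalytic subunit IKK-beta, gave 665 in both media by its brightest probe set, and 211 and 288 (0.45) by another.

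Ikbkg, the gene of the regulatory IKK subunit NEMO, was measured by 6 probe sets that disagreed. The brightest gave 356 and 435 (log2 ratio 0.29), while the 6 ratios ran from -0.67 to 0.32 and their mean was -0.03. No direction can be given for this gene. The median log2 ratio of the 5 kinase genes was 0.08.

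Nod1 encodes a cytosolic sensor of bacterial cell wall fragments. It gave 115 in MDA-PCa2b medium against 216 in PC-3 medium, 1.88-fold higher (log2 ratio 0.91, rank 242), by a single probe set. Of the genes at least 2-fold higher, the nearest to that mark were Irak3 (2.70-fold) and Il33 (2.72-fold), and the nearest below it were Myd88 (1.92-fold), Nod1 (1.88-fold) and Irak2 (1.85-fold). At a threshold of 3-fold only Tlr2, Il1r1 and Map3k8 remained of the 5 genes.

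**Figure D3:**
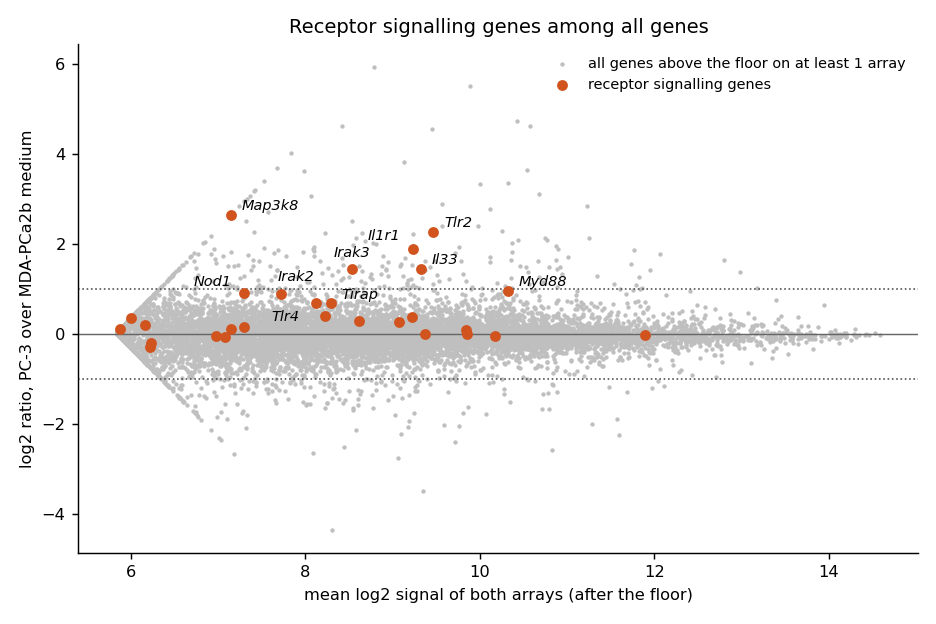
Log2 ratio, PC-3 over MDA-PCa2b medium, against the mean log2 signal of both arrays for all 11336 genes above the floor on at least 1 array (grey) and the 28 receptor signalling genes among them (orange, named where at least 1.5-fold different); the straight edges on the left are genes at the floor on 1 array, drawn at their bound. All 10 named genes lie above 0, and none of the 28 lies below the lower dotted line at 2-fold.

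A further 59 genes of the same pathway were set beside these, of which 49 had a probe set and 43 were above the floor on at least 1 array. In all 10 of these were 2-fold or more higher and none was 2-fold lower, beside 2.12% and 1.85% of all genes, with a median log2 ratio of 0.10. They were unevenly placed, as 6 of the 10 were among the 11 measured genes listed as feedback inhibitors.

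Among 9 measured genes of other receptors and receptor trafficking, only Lbp was at least 2-fold different. It encodes the lipopolysaccharide-binding protein that delivers endotoxin to CD14, and gave 994 and 3681, 3.70-fold higher (log2 ratio 1.89), with 2.52 by a second probe set that was near the floor with MDA-PCa2b medium. Of the 5 measured genes of ligand processing, Casp4 and Il18bp were at least 2-fold higher. Casp4, the gene of the inflammatory caspase that senses cytosolic endotoxin, gave 56.7, just below the floor, and 515, at least 9.09-fold higher. Il18bp, which encodes a soluble inhibitor of interleukin-18, gave 56.0 and 132, at least 2.33-fold higher. The inflammasome genes Nlrp3 (146 and 111), Pycard (372 and 288) and Casp1 (82.3 and 59.2) had log2 ratios from -0.48 to -0.37.

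Of 18 measured genes of further kinases, ubiquitin ligases and transcription factors, Ikbke alone was at least 2-fold different (116 and 265, 2.29-fold higher). It encodes IKK-epsilon, a kinase of interferon regulatory factors. The median of this group was -0.04, equal to that of all genes. The lowest ratio was that of the p38-activating kinase gene Map2k6 (166 and 89.3, 1.86-fold lower).

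The genes listed as feedback inhibitors, most of them known NF-kB targets, had a median log2 ratio of 1.52 over 11 genes. The role of each gene as an inhibitor was not tested, and the name of the list is no evidence of it. The largest ratios among those measured on both arrays were those of Nfkbiz (441 and 2313, log2 ratio 2.39, other probe sets 1.23 and 1.96), Nfkbie (185 and 878, 2.25, other probe set 1.32) and Bcl3 (202 and 845, 2.07). Zc3h12a, the gene of an RNase that degrades cytokine transcripts, was below the floor with MDA-PCa2b medium (40.3) and gave 600.4 with PC-3 medium, a lower bound of 3.40 on the log2 scale. Its second probe set gave 27.0 and 100.8, a lower bound of 0.83. Nfkbia (2326 and 7966, 1.78, other probe sets from 1.33 to 2.27) and Tnfaip3 (204 and 586, 1.52, other probe set 1.42) were also at least 2-fold higher. The genes for the deubiquitinase Cyld (416 and 466) and for Otud7b (363 and 383) had log2 ratios of 0.16 and 0.08. These groups were drawn up with earlier results of the same arrays known, so their counts are no independent support.

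**Figure D4:**
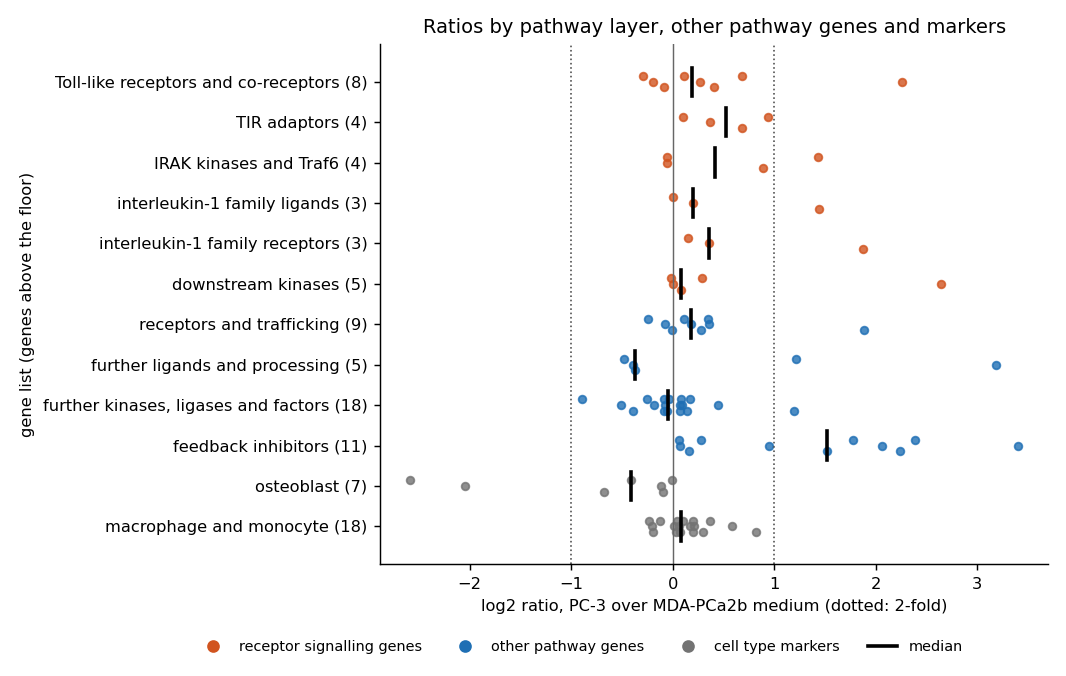
Log2 ratio, PC-3 over MDA-PCa2b medium, of each gene above the floor on at least 1 array, by layer of the pathway (orange), other pathway genes (blue) and cell type markers (grey), with the number of genes in brackets, the median as a black bar and 2-fold dotted; bounds are drawn at their bound, and Nod1, the endothelial and the mast cell and lymphocyte lists are left out for having fewer than 2 such genes. The genes listed as feedback inhibitors have a median of 1.52, the downstream kinases of 0.08 and the macrophage markers of 0.09.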

How the data were processed

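Probe set signals of 2 arrays, 1 for each medium, were analysed. Groups follow the source description, because one title, for PC-3, begins with letters that belong to MDA-PCa2b. They are intensity values on a linear scale deposited by the authors, for which the submitters' processing notes name GCOS 1.4 and MAS5. No source used here gives the scaling target, the background settings or detection calls. Of 45101 probe sets, 64 controls were left out. In the platform annotation 932 probe sets had several genes and 9211 none, and none of these was named; all 34 measurable genes of the list were matched by gene identifier to RefSeq.

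Each array's 50th percentile served as a floor to which lower signals were raised, and the log2 ratio of PC-3 over MDA-PCa2b medium was taken for each gene's brightest probe set by mean signal. A gene at the floor on 1 array has a bound, on both no ratio. The number of arrays limits the precision, and no test between media was possible.

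The 40 genes, 7 layers and 8 further lists were chosen with earlier results of these data known. Signals were given for every gene of the list with a probe set, every measured probe set for genes at least 1.5-fold different, and of each further list the members at least 2-fold different, at most 4. The inflammasome genes, Map2k6, Cyld, Otud7b, Nfkbia and Tnfaip3 were named after their values were seen. The same holds for the marker genes Sp7, Col1a1, Phex, Ibsp, Fcgr1, Cd68, Lyz2, Ptprc and Il7r. So were the second probe sets given for genes of the list under 1.5-fold. Other settings tried were a floor at the 25th or the 75th percentile, no floor with log2(signal + 16), quantile normalization, centring, averaged probe sets, probe sets of single transcripts, and thresholds of 1.5-fold and 3-fold. Values were computed in Python 3.11.15 with pandas 2.3.3. The procedure was tested on simulated data, with changes placed only in brighter genes above the floor on both arrays. That test does not cover bounds or dim probe sets.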

Additional observations from a re-analysis of the deposited data

How the results depend on the processing

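The count of 5 genes of the list at least 2-fold higher lay between 4 and 6 under every floor, scaling and probe set choice run (4 at the 75th percentile, where the bound of Map3k8 was 0.25), and became 10 at 1.5-fold and 3 at 3-fold. With the floor at the 25th percentile 1 gene, Tlr9, was at least 2-fold lower, where otherwise none was. Layer medians that moved by more than the probe set SD were that of the interleukin-1 family ligands (0.72 for a floor at the 75th percentile, against 0.20) and that of the receptors of this family (1.01 for the 25th and 1.88 for the 75th, against 0.36). At the 75th percentile fewer genes of both layers counted as measured, and at the 25th the bound of Il1r2 became a ratio of 1.98. Of 184 ratios of single genes under these choices 174 moved by less than that SD and none at least 2-fold changed sign, while 8 ratios of genes under 2-fold did. Over all genes the counts at least 2-fold higher and lower, 240 and 210, became 684 and 589 when the floor was the 25th percentile, 127 and 77 when it was the 75th, 527 and 436 with log2(signal + 16), 634 and 744 at 1.5-fold, and 96 and 46 at 3-fold. No paired analysis was possible because each medium had 1 array. Signals near the floor limit what can be said of Tlr1, Tlr6, Tlr7, Il1rn and Il1r2.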
